A study of Mus musculus with 8 samples.

Results

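The alpha-defensin gene family is described here across RNA-seq libraries of mouse small-intestinal crypts. Its members were taken by name, as every gene of the deposited table whose symbol begins with Defa, which gave 45 of 55880 genes: 28 protein-coding genes and 17 pseudogenes. The samples were 8 libraries from C57BL/6N mice collected before irradiation, 4 labelled WT (WT1 to WT4) and 4 labelled miR-29ab1-/- (KO1 to KO4), a genotype lacking the cluster of the microRNAs miR-29a and miR-29b-1. The labels name no promoter, Cre, age or treatment for either group, and the series title places the study in intestinal stem cell fate and fatty acid oxidation. Total counts were 13879472 to 17368666 per library. The labels do not say whether the libraries of a group are separate animals or litters, so the p-values below measure the spread between these libraries.

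Alpha-defensins are small antimicrobial peptides held together by disulfide bonds between cysteines. In the mouse intestine they are made by Paneth cells, the granule-filled secretory cells at the crypt base, which release them into the crypt lumen. They are translated as longer precursors, and in mouse Paneth cells the metalloprotease matrilysin, the product of Mmp7, cuts the precursor to free the active peptide, which is encoded by the last coding exon.

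The targeted locus was examined first. Mir29a had 0 counts in all 8 libraries, and Mir29b-1 had 0 counts in each WT library and 2, 5, 7 and 3 in KO1 to KO4. Gm27019, the gene next to the Mir29b-1 hairpin, had 0 counts in each WT library and 227 to 327 in the KO libraries. Counts of the hairpin only in the libraries labelled knockout go against the label taken at face value, and how far the deletion reaches was not stated in the labels. The groups are therefore named by label throughout, and KO means labelled knockout.

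3 libraries stood apart in the make-up of the family, and they cross the labels: WT1, WT4 and KO3. Defa40 and Defa26 show it most plainly. The count ratio of Defa40 to Defa26 was 2.18 in WT1, 2.38 in WT4 and 2.04 in KO3, and lay between 0.695 and 0.708 in the other 5 libraries. The results below give the values of these libraries where a result touches them.

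All 45 members lay on chromosome 8, between 19210462 and 21750000 (GRCm38, a span of 2539539 bases). Their coordinates were identical to GENCODE M21, as were those of 99.5% of the 55230 identifiers shared with that annotation. Of the 28 coding members, 23 are on the plus strand and 5 on the minus strand. The last coding exons of the members that carry most of the counts, or whose ratios set libraries apart, are printed below from GENCODE M21 to show how alike they are. Capitals mark the codons for cysteine.
Defa24 (chr8:21735268-21735374, plus strand): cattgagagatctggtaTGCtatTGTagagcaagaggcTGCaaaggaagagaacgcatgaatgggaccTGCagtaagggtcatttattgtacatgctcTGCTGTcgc
Defa30 (chr8:21135394-21135500, plus strand): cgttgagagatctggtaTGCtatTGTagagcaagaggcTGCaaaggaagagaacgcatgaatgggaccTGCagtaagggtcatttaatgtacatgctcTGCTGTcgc
Defa17 (chr8:21656532-21656638, plus strand): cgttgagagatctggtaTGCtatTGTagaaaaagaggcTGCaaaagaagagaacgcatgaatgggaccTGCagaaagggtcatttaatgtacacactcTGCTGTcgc
Defa31 (chr8:21192345-21192451, plus strand): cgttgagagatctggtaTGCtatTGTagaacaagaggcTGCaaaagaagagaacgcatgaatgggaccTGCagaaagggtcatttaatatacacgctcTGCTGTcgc
Defa40 (chr8:21250352-21250458, plus strand): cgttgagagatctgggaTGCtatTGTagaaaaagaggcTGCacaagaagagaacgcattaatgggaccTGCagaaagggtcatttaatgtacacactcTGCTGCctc
Defa26 (chr8:21618773-21618879, plus strand): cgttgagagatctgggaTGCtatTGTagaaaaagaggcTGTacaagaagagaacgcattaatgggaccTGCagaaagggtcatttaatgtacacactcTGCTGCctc
Defa21 (chr8:21026314-21026420, plus strand): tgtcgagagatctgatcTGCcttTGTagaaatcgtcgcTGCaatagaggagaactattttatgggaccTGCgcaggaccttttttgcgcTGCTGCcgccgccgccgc
Defa22 (chr8:21163046-21163152, plus strand): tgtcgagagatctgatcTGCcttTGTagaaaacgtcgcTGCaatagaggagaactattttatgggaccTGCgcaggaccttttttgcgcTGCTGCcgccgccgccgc
Defa2 (chr8:21379287-21379399, plus strand): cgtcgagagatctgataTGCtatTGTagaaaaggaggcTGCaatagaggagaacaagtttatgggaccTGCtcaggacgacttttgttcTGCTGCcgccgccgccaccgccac
Defa39 (chr8:21702631-21702806, minus strand): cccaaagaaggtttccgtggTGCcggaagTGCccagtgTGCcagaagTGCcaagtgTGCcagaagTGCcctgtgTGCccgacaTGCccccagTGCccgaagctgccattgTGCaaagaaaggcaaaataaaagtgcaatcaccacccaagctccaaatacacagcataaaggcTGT
Defa42 (chr8:21455542-21455717, minus strand): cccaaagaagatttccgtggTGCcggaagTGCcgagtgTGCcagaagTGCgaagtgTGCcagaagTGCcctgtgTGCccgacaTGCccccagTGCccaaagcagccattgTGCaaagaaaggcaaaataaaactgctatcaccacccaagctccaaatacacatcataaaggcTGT

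Cysteine codons sorted the coding members into kinds. The last coding exon held 6 of them in 22 members, 7 in Defa41, and 11 in the 5 minus-strand members Defa39, Defa38, Defa42, Defa29 and Defa43. The 11-cysteine exons were 176 bases long and belong to the cryptdin-related sequences, relatives of the classical cryptdins with a different, cysteine-rich mature peptide. The exon of Defa39 was 41.3% identical to that of Defa24, against 98.1% between Defa24 and Defa30. Defa21 and Defa22 were 99.1% identical to each other and 66.4% and 66.7% to Defa24.

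Many members were closer still. The last coding exon was identical between Defa17 and Defa3, between Defa23 and Defa31, between Defa42 and Defa43, and among Defa2, Defa20, Defa32 and Defa33. It was also identical between Defa36 and Defa37, and among Defa34, Defa5 and Defa35. 12 coding members shared their whole protein with another member. Joined at 98% identity of the last coding exon, the 28 coding members made 14 classes.

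This likeness limits how far reads can be placed. In 7 coding members every 50-base window of the transcript also occurred in another gene, and in 23 more than 50% of the windows did. The lowest share was 28.1%, in Defa24, none of whose 100-base windows occurred elsewhere. For Defa42, Defa2, Defa31 and Defa37 100% of the 100-base windows occurred in another gene. With read length and the handling of reads with several placements not given in the sources used here, values of single members with such partners are uncertain, and class values are given beside them.

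Abundance was concentrated in a few genes. Defa24 had the highest length-scaled level of any gene in the table, with a mean of 24605 FPKM (the authors' counts per gene length and scaled depth) over all 8 libraries, and ranked 3 by counts. The next members by FPKM were Defa30 at 8206, the 11-cysteine member Defa39 at 5904, Defa21 at 4815, the 11-cysteine member Defa38 at 4697 and Defa22 at 4008. These 6 genes held 75.1% to 84.3% of the family's counts in each library and were all among the 100 genes with the most counts. The highest pseudogene by this measure, Defa-ps7, had a mean of 104 FPKM.

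9 members were too low to test. Defa-ps8, Defa-ps12, Defa-ps13, Defa-ps14 and Defa-ps15 had 0 counts in every library. A count of 0 allows up to 3 counts, which is 0.173 to 0.216 CPM (the usual depth-scaled count, here on TMM library sizes), for counting error only. Over all libraries Defa-ps3 had 44 counts, Defa25 31, Defa-ps9 11 and Defa-ps11 4. The other 36 members, 27 coding genes and 9 pseudogenes, passed the filter on low counts.

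**Figure D1:**
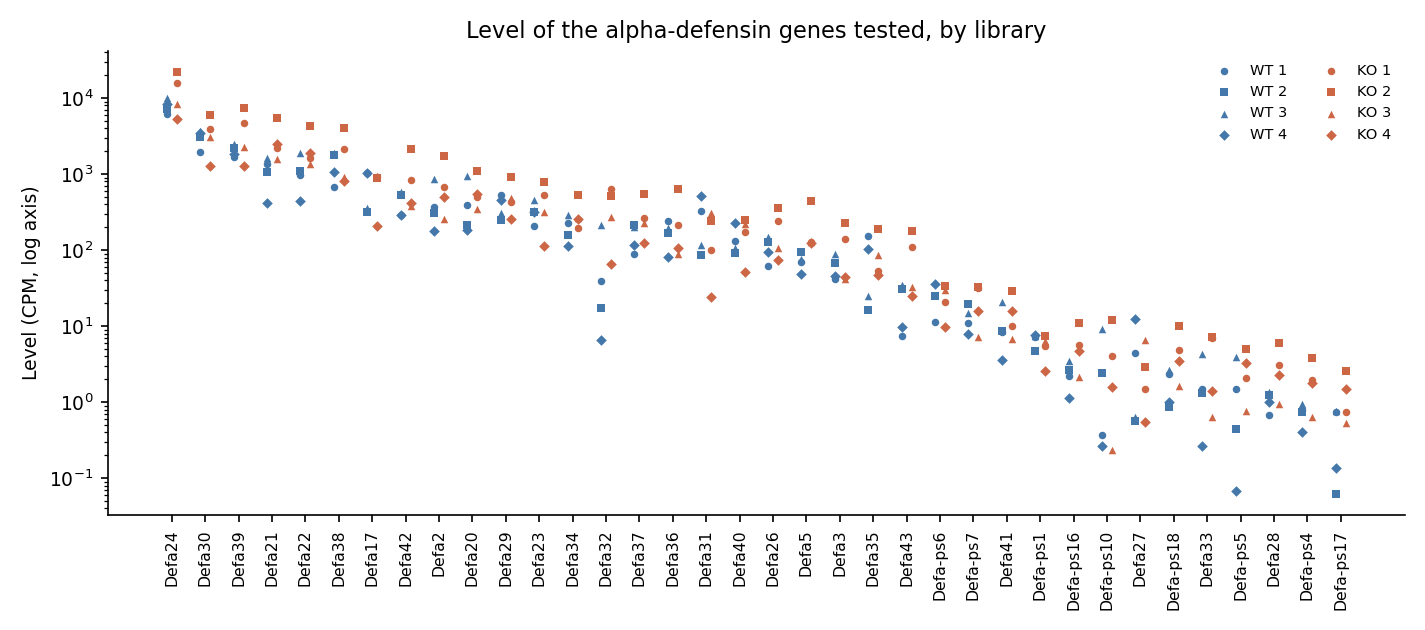
Level of each tested member in CPM (log axis), ordered by mean, with 1 marker per library (blue for WT, red for KO). KO2, the red square, is the highest library for 30 of the 36 members, and Defa24 lies above the rest in all 8 libraries.

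The family total was set mostly by single libraries. It was 17126 CPM in WT1, 19569 in WT2, 26731 in WT3 and 19520 in WT4, and 36523 in KO1, 61315 in KO2, 22108 in KO3 and 16042 in KO4. As shares of all counts these were 1.92%, 1.90%, 2.63% and 2.03% in WT1 to WT4 and 3.58%, 5.89%, 2.49% and 1.34% in KO1 to KO4. The widest exact 95% binomial interval, that of KO2, ran from 5.88% to 5.90% and covers counting error only. KO2 and KO1 were the highest libraries and KO4 the lowest, so the groups overlapped.

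The group means were 20737 ± 4156 CPM in WT and 33997 ± 20136 in KO (SD, n = 4 each), a 1.64-fold ratio, or 0.71 on the log2 scale. The difference is smaller than the SD of the KO group. Without KO2 it was 0.26 on the log2 scale. It was 0.95 without KO4 and 0.71 without WT1, WT4 and KO3. In bulk crypt RNA, fewer Paneth cells and less RNA per Paneth cell cannot be told apart.

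Other markers moved with some of these libraries. The summed level of 7 Paneth cell markers outside the family (Lyz1, Mmp7, Ang4, Itln1, Mptx2, Pla2g2a and Habp2) was 11805 to 17514 CPM in WT and 24253, 30074, 24141 and 9843 in KO1 to KO4. This sum, of which Lyz1 was the largest part, was highest in KO2 and lowest in KO4, as the family was. Each marker singly was highest in KO2, but only Mmp7 and Itln1 were lowest in KO4. Lyz1, Pla2g2a and Habp2 were lowest in WT2, Ang4 in WT1 and Mptx2 in KO1. The sum of 10 enterocyte markers was 14066 to 25788 CPM in WT and 22626, 25995, 10133 and 59256 in KO1 to KO4, so KO4 held the most, and none of the 10 was at 0. Their part in the family's level was not tested. Neutrophils are another alpha-defensin source in some mammals. Of 9 myeloid and neutrophil markers, Elane and Mpo were at 0 in every library, while S100a8, S100a9, Camp and Ngp reached at most 0.195, 0.235, 0.118 and 0.0783 CPM. Lyz2, Cd68 and Csf1r were present in all 8 libraries, and the 9 markers summed to 6.59 to 18.6 CPM in WT and 6.19 to 9.82 in KO.

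**Figure D2:**
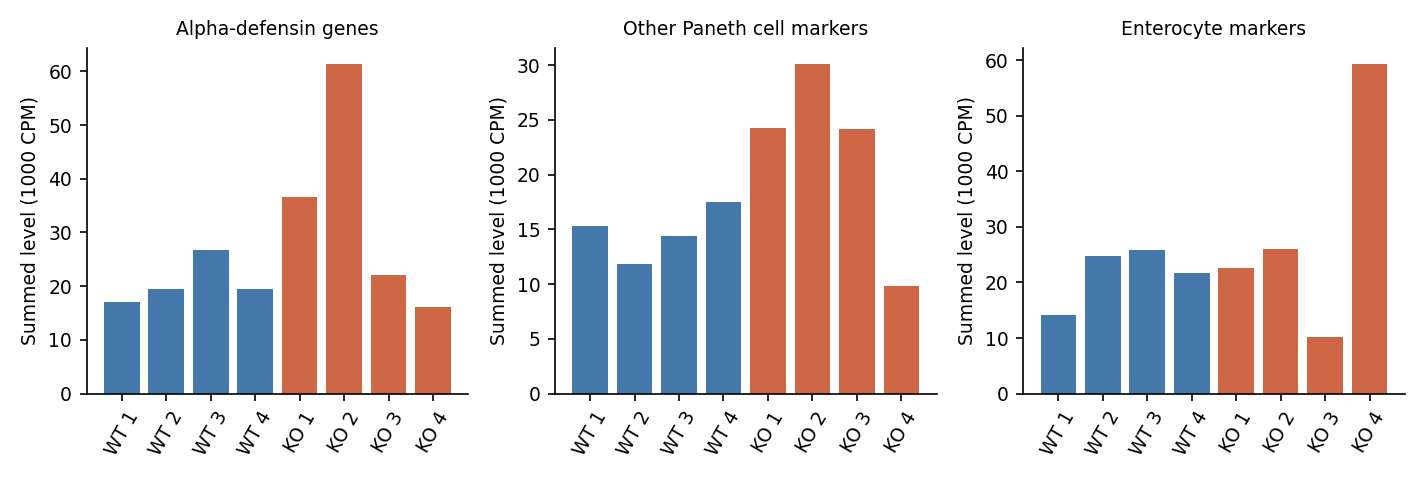
Summed level (axis in units of 1000 CPM) of the 45 alpha-defensin genes, of 7 other Paneth cell markers and of 10 enterocyte markers, with 1 bar per library (blue for WT, red for KO). KO2 is highest and KO4 lowest in the first 2 panels, and KO4 is highest in the third, at 59256 CPM.

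For most members the share of the family varied less between libraries of a group than the member's own level. Defa24 made up 36.0%, 37.2%, 37.2% and 43.2% of the family's counts in WT1 to WT4 and 43.1%, 36.1%, 37.6% and 32.8% in KO1 to KO4. Its mean share was 38.4% ± 3.28 in WT and 37.4% ± 4.28 in KO (SD, n = 4 each), while its CPM ran from 5270 to 22146. The SD within groups, pooled over WT and KO, was 0.14 for its log2 share and 0.69 for its log2 CPM. This SD leaves out the difference between the groups. By the same pooled SD, the share varied less than the level for 33 of the 36 members. The median SD was 0.66 for log2 shares and 0.91 for log2 CPM. Lower values for shares follow in part from the measure. Dividing by the family's counts removes variation common to the members, and Defa24 is itself a large part of those counts. No member had shares that separated the groups.

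For the kinds and the leading classes the shares of the groups overlapped. The 5 members with 11 cysteine codons made up 17.4% to 24.4% of the counts, with means of 20.5% ± 2.69 in WT and 20.6% ± 3.19 in KO (SD, n = 4 each). Pseudogenes made up 0.195% to 0.289%. The class of Defa24 and Defa30 held 40.8% in KO4 and 60.8% in WT4, its extremes. The class of Defa21 and Defa22 ran the other way, with 27.2% in KO4 and 4.36% in WT4, a 6.23-fold range, and its means were 10.6% ± 4.29 in WT and 16.7% ± 7.31 in KO (SD, n = 4 each).

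**Figure D3:**
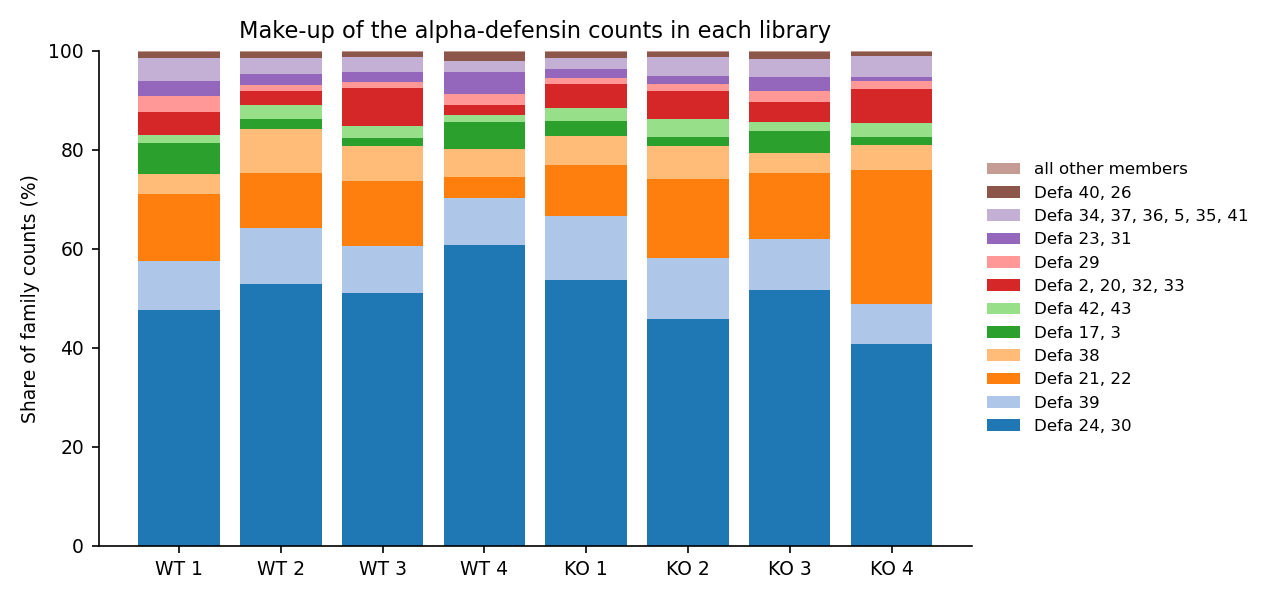
Share of the family's counts held by each class of members joined at 98% identity of the last coding exon. Each library is 1 stacked bar (y axis in percent). The class of Defa24 and Defa30 is the bottom block in all 8 bars, and the class of Defa21 and Defa22 is narrowest in WT4 (4.36%) and widest in KO4 (27.2%).

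Ratios between related genes were among the values on which these 3 libraries were picked. Because both counts come from 1 library, such a ratio does not depend on depth or on the family's level. Of 12 pairs computed, 6 had their highest ratios in WT1, WT4 and KO3, with no overlap with the other 5 libraries. The pairs of Defa40, Defa27, Defa29 and Defa35 were chosen after their values were seen. With libraries and pairs both picked on these values, the count is a description and not a test.

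Defa40 and Defa26 (last coding exons 99.1% identical, printed above) shared 1.05% and 1.10% of their 100-base windows with another gene. Of their 50-base windows, 37.2% and 40.25% occurred in another gene. These are low shares among the coding members, but with read length not given the split of their counts stays uncertain. Defa40 took 68.5% of the counts of the pair in WT1 (exact 95% binomial interval 66.9 to 70.1), 70.4% in WT4 (69.1 to 71.7) and 67.1% in KO3 (65.8 to 68.3). It took 41.5% in WT2 (39.8 to 43.1), 41.2% in WT3 (39.7 to 42.7), 41.2% in KO1 (39.9 to 42.5), 41.0% in KO2 (40.0 to 42.0) and 41.3% in KO4 (38.9 to 43.8). The intervals of the 5 lower libraries overlap one another, and none reaches those of the 3 higher ones.

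Defa17 and Defa3, which encode 1 protein, showed the same order. The ratio of Defa17 to Defa3 counts was 24.8 in WT1, 22.5 in WT4 and 22.2 in KO3, and 4.63, 4.07, 6.45, 3.91 and 4.65 in WT2, WT3, KO1, KO2 and KO4. Defa31 and Defa23, also with 1 protein, had ratios of 1.55, 1.65 and 0.983 in WT1, WT4 and KO3 and of 0.186 to 0.309 elsewhere. The share of 100-base windows found in another gene was 90.6% for Defa17 and 100% for Defa31, so the split between partners is less certain here than for Defa40.

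The remaining pairs of this kind were Defa27 over Defa28, at 6.64 to 12.5 in WT1, WT4 and KO3 and 0.241 to 0.478 elsewhere, Defa29 over Defa38, at 0.435 to 0.780 and 0.142 to 0.319, and Defa35 over Defa5, at 0.679 to 2.23 and 0.174 to 0.435. Defa27 and Defa28 are low genes, under 13 CPM in each library. They are also less alike, with last coding exons 86.2% identical, and fall in different classes. Of the 36 members tested, 7 had their highest shares of the family in WT1, WT4 and KO3. These were Defa17, Defa29, Defa31, Defa40, Defa35, Defa-ps1 and Defa27. Another 4 had their lowest shares there (Defa42, Defa3, Defa-ps16 and Defa-ps10). In CPM, 3 members lay above the other 5 libraries and 6 below. The 3 libraries were picked on the members' own values, so these counts are a description and not a test.

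Other measures moved with these libraries. The 10 enterocyte markers summed to 10133 to 21684 CPM in WT1, WT4 and KO3 and to 22626 to 59256 in the other 5, with 4 of the 10 markers separated singly. The TMM scaling factor was 1.04 to 1.13 in the 3 libraries and 0.835 to 0.986 in the others, and the family's level over the Paneth marker sum was 0.916 to 1.12 against 1.51 to 2.04. The summed markers of goblet, enteroendocrine, tuft, stem and T cells overlapped between the 3 and the 5. So did the Paneth marker sum (15335 to 24141 CPM against 9843 to 30074) and the family's level (17126 to 22108 CPM against 16042 to 61315). The family's level over that of Lyz1 overlapped too, at 1.45 to 2.82 against 2.36 to 4.64. The part of these measures in the ratios was not tested.

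Other pairs did not follow that order. The ratio of Defa22 to Defa21 stayed within 0.707 to 1.16, and that of Defa30 to Defa24 within 0.241 to 0.422. Defa32 over Defa20, genes with an identical protein, ran from 0.0363 in WT4 to 1.28 in KO1, a 35.4-fold range. It was 0.103, 0.0809, 0.226 and 0.0363 in WT1 to WT4 and 1.28, 0.464, 0.780 and 0.118 in KO1 to KO4, with KO4 below WT3, so the groups overlapped. For both genes 99.7% of the 100-base windows occurred in another gene.

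**Figure D4:**
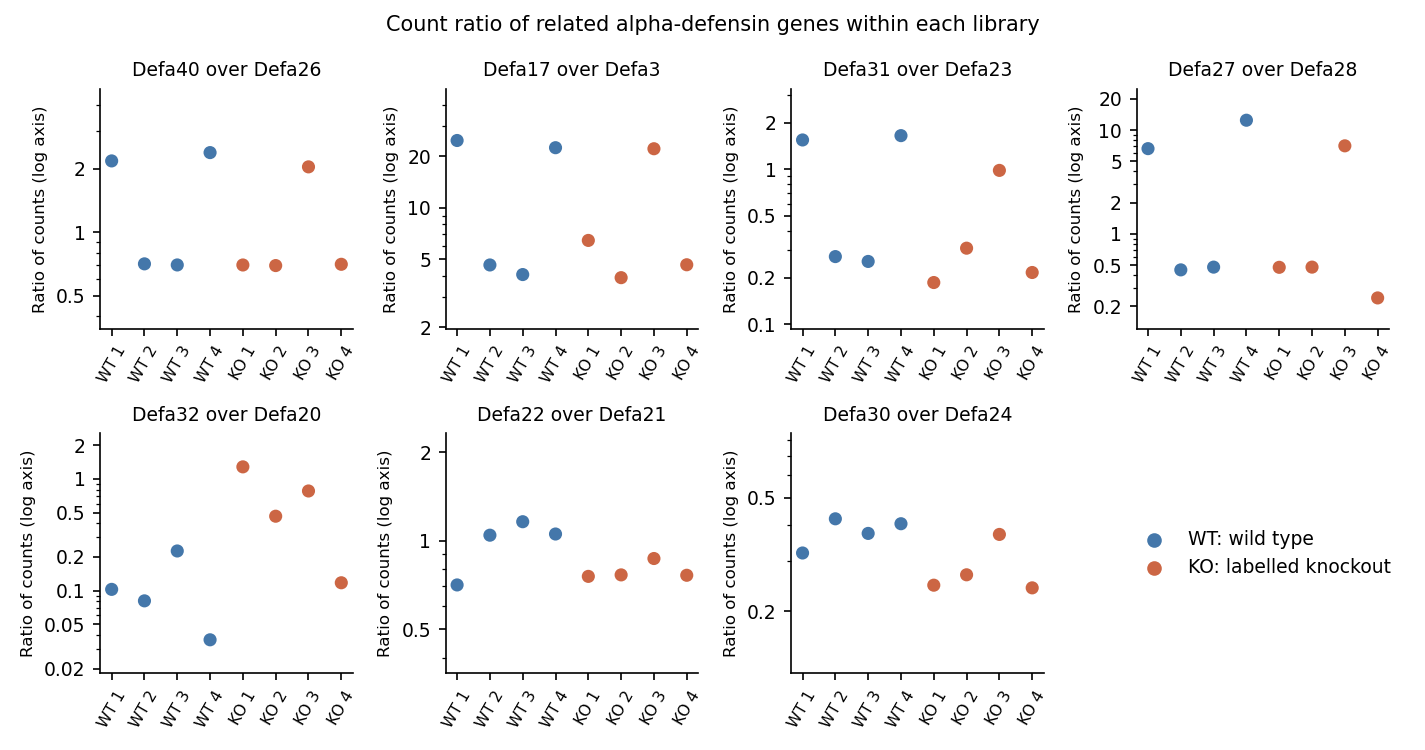
Ratio of the counts of 2 related members within each library (log axes), 1 point per library (blue for WT, red for KO). For Defa40 over Defa26, Defa17 over Defa3, Defa31 over Defa23 and Defa27 over Defa28, WT1, WT4 and KO3 lie above the other 5 libraries; Defa22 over Defa21 spans 0.707 to 1.16.

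Between the labelled groups no alpha-defensin passed the test. With edgeR's quasi-likelihood test over 14897 genes and Benjamini-Hochberg adjustment, 0 of the 36 members had an adjusted p under 0.05, where 0.0201% of all genes did, and the smallest adjusted p was 0.994. At an unadjusted p under 0.05, 8 members were higher in KO, beside 1.87% of all genes, and 0 were lower, beside 0.832%. DESeq2 called 0 members, beside 0.109% of all genes, with the smallest adjusted p at 0.155 for Defa5.

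The directions were mostly the same, and the members share libraries and reads. The log2 fold change, KO over WT, was above 0 for 32 of 36 members, beside 52% of all genes, and the median was 0.77 beside 0.011 over all genes. Below 0 were Defa31, Defa27, Defa-ps6 and Defa-ps1. All but Defa-ps6 are among the members with their highest shares in WT1, WT4 and KO3. More of these libraries are WT than KO, which by itself lowers the log2 fold change of such members. The others of that group, Defa17, Defa29, Defa40 and Defa35, were above 0. Without KO2, 26 of 36 were above 0 and the median fell to 0.30. Without WT1, WT4 and KO3, 35 of the 37 then tested were above 0, with a median of 0.81. Those libraries were picked on the members' own values. CPM of the groups did not overlap for 1 member that was higher in KO, Defa5, beside 0.913% of all genes, and for 0 that were lower, beside 0.618%.

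**Figure D5:**
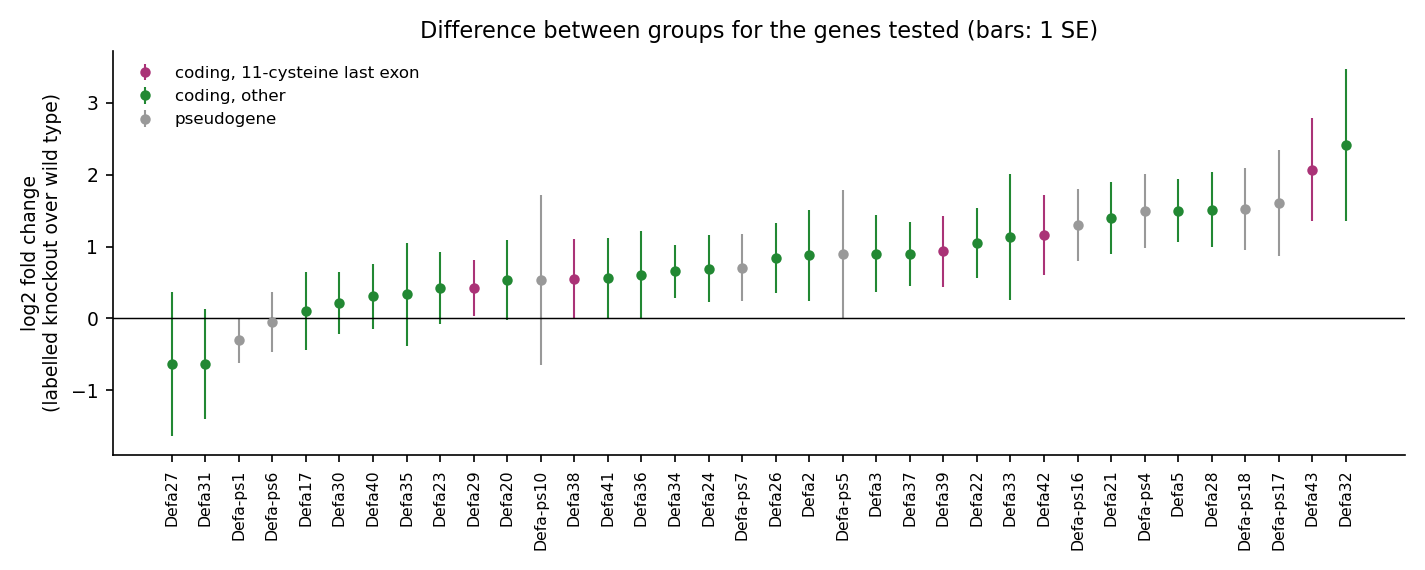
Log2 fold change (KO over WT) of the 36 tested members with bars of 1 SE, coloured by kind. 32 points lie above 0, from Defa17 at 0.10 to Defa32 at 2.41, and no member passed the adjusted threshold.

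Among the abundant plus-strand genes, Defa24 was at 6167, 7276, 9936 and 8442 CPM in WT1 to WT4 and at 15743, 22146, 8315 and 5270 in KO1 to KO4. KO1 and KO2 lay above every WT library and KO4 below them all. Its log2 fold change was 0.69 (SE 0.46), and 0.30 without KO2. Defa30, its closest relative, was at 1974, 3072, 3726 and 3425 CPM in WT and 3881, 5940, 3093 and 1271 in KO, with a log2 fold change of 0.22 (SE 0.43) that was -0.15 without KO2 and 0.50 without KO4.

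Defa21 stood at 1367, 1067, 1636 and 414 CPM in WT1 to WT4 and at 2177, 5551, 1576 and 2472 in KO1 to KO4. KO3 lay below WT3 and the other KO libraries above every WT library. The log2 fold change was 1.39 (SE 0.50, edgeR unadjusted p = 0.0204, adjusted p = 0.994), and 0.88 without KO2. Defa22 was at 967, 1114, 1899 and 437 CPM in WT and 1646, 4247, 1370 and 1885 in KO, with a log2 fold change of 1.05 (SE 0.49). In both genes WT4 was the lowest and KO2 the highest library.

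Defa5 was the member whose groups did not overlap. It was at 69.3, 93.3, 77.3 and 48.5 CPM in WT1 to WT4 and at 128, 437, 128 and 123 in KO1 to KO4. The ratio was 2.83-fold, with a log2 fold change of 1.50 (SE 0.44, edgeR unadjusted p = 0.0079, adjusted p = 0.994). Without KO2 it was 0.81. In the authors' deposited table Defa5 has an adjusted p of 0.156 and Defa21 of 0.454. Of the 50-base windows of Defa5, 99.7% occurred in another gene, and its class of 6 members held 3.36% ± 0.944 of the family in WT and 3.51% ± 0.798 in KO (SD, n = 4 each).

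Defa32 had the largest log2 fold change of the members tested. It was at 39.7, 17.4, 217 and 6.59 CPM in WT1 to WT4 and at 643, 515, 272 and 65.2 in KO1 to KO4, so KO4 lay below WT3. The log2 fold change was 2.41 (SE 1.05, edgeR unadjusted p = 0.0476, adjusted p = 0.994), and it was 4.14 without WT3. Defa2 was at 371, 305, 871 and 177 CPM in WT and 683, 1737, 255 and 494 in KO (log2 fold change 0.88, SE 0.63), and leaving out single libraries gave 0.14 without KO2 to 1.48 without WT3. Defa20 was at 387, 215, 959 and 182 CPM in WT and 501, 1111, 349 and 554 in KO (log2 fold change 0.53, SE 0.56), with 0.099 without KO2 and 1.27 without WT3 as the extremes. Summed, the class of Defa2, Defa20, Defa32 and Defa33 held 4.24% ± 2.57 of the family's counts in WT and 5.36% ± 1.24 in KO (SD, n = 4 each).

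Defa17 differed more within the groups than between them. It was at 1026, 315, 361 and 1031 CPM in WT1 to WT4 and at 907, 890, 936 and 206 in KO1 to KO4. WT2, WT3 and KO4 were low and the other 5 libraries lay between 890 and 1031. The log2 fold change was 0.10 (SE 0.54), and 0.98 without WT1, WT4 and KO3. Defa17 had its highest shares in those 3 libraries. They were picked on the members' own values, so 0.98 is not independent of that choice. The log2 fold change of Defa17 was below 0 when WT2, WT3, KO1 or KO3 alone was left out (-0.13, -0.10, -0.012 and -0.033). Defa28, a low gene, was at 0.674, 1.25, 1.35 and 1.01 CPM in WT and 3.09, 5.98, 0.943 and 2.27 in KO, with a log2 fold change of 1.51 (SE 0.52, edgeR unadjusted p = 0.0167, adjusted p = 0.994) that was 0.95 without KO2.

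All 5 of the 11-cysteine members had log2 fold changes above 0, with a median of 0.93, beside 0.68 for the other 22 coding members tested. Defa39 was at 1699, 2202, 2508 and 1843 CPM in WT1 to WT4 and at 4672, 7511, 2276 and 1293 in KO1 to KO4. KO1 and KO2 were above all WT libraries and KO4 below them, and the log2 fold change was 0.93 (SE 0.49), or 0.41 without KO2. Defa38 was at 687, 1764, 1875 and 1066 CPM in WT and 2145, 4069, 904 and 807 in KO, with a log2 fold change of 0.56 (SE 0.55) that was -0.070 without KO2.

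Defa42 was at 287, 532, 590 and 287 CPM in WT1 to WT4 and at 844, 2136, 387 and 413 in KO1 to KO4, with a log2 fold change of 1.16 (SE 0.56) that was 0.37 without KO2. Its partner Defa43, with an identical last coding exon, was at 7.47, 30.6, 35.0 and 9.89 CPM in WT and 109, 181, 32.9 and 25.3 in KO. The log2 fold change of Defa43 was 2.07 (SE 0.72, edgeR unadjusted p = 0.0183, adjusted p = 0.994), and 1.42 without KO2. KO3 and KO4 lay within the WT range for Defa43. Each of the 5 genes has a small nucleolar RNA gene inside an intron on its own strand, with 25 to 163 counts over all libraries.

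The 9 pseudogenes tested had a median log2 fold change of 0.89, with 7 above 0. Defa-ps4 was at 0.796, 0.752, 0.936 and 0.404 CPM in WT1 to WT4 and at 1.98, 3.84, 0.648 and 1.80 in KO1 to KO4. KO3 lay within the WT range and the other KO libraries above it, and the log2 fold change was 1.50 (SE 0.52, edgeR unadjusted p = 0.0167, adjusted p = 0.994). Defa-ps17 had a log2 fold change of 1.60 (SE 0.73) on 1 to 39 counts per library. The other members with an unadjusted p under 0.05 were Defa-ps18 (log2 fold change 1.53, edgeR unadjusted p = 0.0247, adjusted p = 0.994) and Defa-ps16 (1.30, edgeR unadjusted p = 0.0275, adjusted p = 0.994).

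Upstream sequences were available for 16 members, all coding, in the RefSeq promoter set (GRCm38.p6, 250 bases before to 50 after the start). They were searched on both strands for 5 motifs: CTTTGAT (the core letters bound by TCF factors of Wnt signalling), TATAAA, the E-box CANNTG, the GATA motif AGATAA and the CDX motif TTTATG. The TCF letters were found in 13 of 16 (81.3%), beside 3.73% of 32851 promoters of the same length, and TATAAA in 15 of 16 (93.8%), beside 13.6%. CANNTG was found in 16 of 16 (100%), beside 72.3%, while AGATAA and TTTATG were found in 0 of 16, beside 11.2% and 11.9%. The 3 without CTTTGAT were Defa38, Defa42 and Defa43, all with 11 cysteine codons. The members are near copies of each other, so these matches are not independent. For Defa42 the RefSeq start lies 43 bases inside the gene as the table's annotation has it. The 150 bases before the more upstream of both starts are printed for 1 gene of each kind to show where the letters lie, with matches in capitals (CTTTGAT reads ATCAAAG on the other strand).
Defa21 (chr8:21025395-21025544, plus strand): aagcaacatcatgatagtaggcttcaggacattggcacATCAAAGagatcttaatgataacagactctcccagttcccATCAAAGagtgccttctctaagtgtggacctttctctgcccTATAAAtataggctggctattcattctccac
Defa42 (chr8:21456561-21456710, minus strand): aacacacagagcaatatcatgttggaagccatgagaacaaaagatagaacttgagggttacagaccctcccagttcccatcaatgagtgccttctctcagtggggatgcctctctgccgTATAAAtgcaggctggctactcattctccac

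In the Defa21 stretch the TCF letters occur at both places in capitals ahead of the TATA letters, and in the Defa42 stretch the TATA letters alone are in capitals. The log2 fold changes of Defa38, Defa42 and Defa43 were 0.56, 1.16 and 2.07. Among the members with CTTTGAT they ran from -0.63 in Defa31 to 2.41 in Defa32, with 1.39 in Defa21 and 1.05 in Defa22. A link between these letters and the fold changes was not tested.

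A list of Paneth cell and maturation genes outside the family was read beside it. The deposited table held 35 of them and 34 were tested; 0 changed (0.0201% of all genes tested), 25 had log2 fold changes above 0 (52% of all genes) and 9 below, and the median was 0.13. At an edgeR unadjusted p under 0.05, 3 were higher in KO and 0 lower, beside 1.87% and 0.832% of all genes. Lyz1, the Paneth cell lysozyme, was at 10009, 5618, 5763 and 6929 CPM in WT1 to WT4 and at 15499, 15846, 15229 and 5998 in KO1 to KO4. KO1, KO2 and KO3 were above every WT library and KO4 within the WT range, and the log2 fold change was 0.89 (SE 0.40, edgeR unadjusted p = 0.0493, adjusted p = 0.994).

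Lyz1 and the alpha-defensins did not keep 1 proportion. The family's level over that of Lyz1 was 1.71, 3.48, 4.64 and 2.82 in WT1 to WT4 and 2.36, 3.87, 1.45 and 2.67 in KO1 to KO4. KO3 had nearly as much Lyz1 as KO2 and 22108 CPM of alpha-defensins against 61315. Mmp7, the gene of the processing enzyme, was at 355, 298, 271 and 395 CPM in WT and 325, 581, 443 and 246 in KO, with a log2 fold change of 0.27 (SE 0.26).

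Of the other Paneth list genes with the smallest p, the log2 fold change of Habp2, a hyaluronan-binding serine protease, was 0.77 (SE 0.24, edgeR unadjusted p = 0.0103). Copz2, a coat subunit of Golgi vesicles, had 0.98 (SE 0.33, edgeR unadjusted p = 0.0155). Wnt3, a Wnt ligand that Paneth cells supply to stem cells, had 0.71 (SE 0.32), and Fgfrl1, a receptor-like protein of the FGF receptor family, had 0.32 (SE 0.18). The adjusted p was 0.994 for these 4 genes in edgeR's test.

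Inside the span of the cluster lie 63 genes without a Defa name, of which 13 were tested and 0 changed, beside 0.0201% of all genes. Of the 13, 10 had log2 fold changes above 0, beside 52% of all genes, with a median of 0.15 beside 0.011. The 63 genes are not free of alpha-defensin sequence. 4 of them (Gm15300, Gm15305, Gm15311 and Gm15313, all annotated as pseudogenes) shared 50-base windows with members. Of these 4 only Gm15300 was tested (log2 fold change 0.059, SE 0.58). The 5 with the highest levels were Rpl19-ps11 (log2 fold change 0.058, SE 0.13), 2610005L07Rik (-0.070, SE 0.24), Gm21811 (0.15, SE 0.23), 6820431F20Rik (-0.017, SE 0.24) and Gm21092 (0.37, SE 0.34). Rpl19-ps11 ran from 48.9 CPM in KO4 to 71.3 in KO3, and the family total had a 3.82-fold range over the same libraries.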

How the data were processed

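The deposited table holds whole-number counts per gene and library, per the file headers, with the authors' FPKM values, log2 fold changes and p-values, gene lengths and group means (a signal scaled by size factors) beside them. Per the submitters' processing notes, HISAT2 and DESeq2 were used, with no version named; counter, strand setting, annotation and build: not given in the sources used here. Library preparation marked strand, per the labels' protocols.

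The deposited counts went into edgeR 4.0.16 (R 4.3.3): quasi-likelihood test, TMM scaling, filterByExpr, all 8 libraries, group as the only term, Benjamini-Hochberg adjustment over all genes and a threshold of 0.05. The SE is the absolute log2 fold change divided by the root of the test's F value. DESeq2 1.42.0 was an alternative, as were RLE size factors, no filter, scaling without the alpha-defensin rows, a replicate block, summed members and leaving out libraries. Shares are counts over the family's counts. FPKM ranked levels only. Family totals and shares were not tested. The tests were checked on simulated data. Libraries of a group differed by more than sampling noise (smallest chi-square over its degrees of freedom 28.9).

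The members and lists were chosen with earlier results of these data known. Values per library are given for the members with the 10 highest mean CPM and the 3 smallest p, and for Lyz1 and Mmp7. Of the 3 members with the largest changes, Defa32 and Defa43 have values per library and Defa-ps17 a log2 fold change and count range. The rest of the 5 smallest p of the Paneth list have log2 fold changes and SE. So do the 5 highest other genes of the cluster. Members named for their ratios were chosen after their values were seen. The Paneth list had 39 names, 4 of them older names of members. Total counts of 13879472 to 17368666 per library set the precision, and intervals and floors cover counting error only, since reads carry no molecular identifiers. Leaving out WT1, WT4 and KO3 together, or KO2 and KO4 together, and joining members by last coding exon were chosen after the data were seen.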

Additional observations from a re-analysis of the deposited data

Results flagged for a closer look

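In 78 groups of 4 libraries examined, 5 had 1 library far from the other 3, where chance gives about 1 in 20. Defa24 took 43.2% of the family's counts in WT4, beside 36.0% to 37.2% in the other WT libraries. Defa17 was at 206 CPM in KO4, beside 890 to 936 in the other KO libraries. Defa5 was at 437 CPM in KO2, beside 123 to 128, and its groups do not overlap with or without that library. Defa32 was at 217 CPM in WT3, beside 6.59 to 39.7. Lyz1 was at 5998 CPM in KO4, beside 15229 to 15846. The causes were not tested.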

How the results depend on the processing

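No alternative called a member, a Paneth list gene or another gene of the cluster. At an unadjusted p under 0.05 edgeR gave 8 members higher and 0 lower with all libraries. With single libraries left out, the log2 ratio of the family total ranged from 0.26 to 0.95 and the median of the members from 0.30 to 1.09; without KO2 and KO4 together they were 0.50 and 0.47. The difference in the share of Defa24 (-0.98 percentage points, KO minus WT) ranged from -2.88 to 0.63 with single libraries left out, above 0 without WT4 (0.63) and without KO4 (0.54). It was -5.10 for the class of Defa24 and Defa30, to which Defa30 is added.

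Some log2 fold changes changed sign. With single libraries left out, Defa17 ranged from -0.13 to 0.42 (below 0 without WT2, WT3, KO1 or KO3), Defa30 from -0.15 to 0.50 and Defa38 from -0.070 to 0.81 (both below 0 without KO2). Of the cluster's other genes, 2610005L07Rik ranged from -0.25 to 0.051, 6820431F20Rik from -0.26 to 0.14, Rpl19-ps11 from -0.034 to 0.15, Gm21811 from -0.13 to 0.26 and Gm21092 from -0.051 to 0.55. Without KO2 and KO4 together, Defa20 was at -0.032, Gm21811 at -0.17 and Gm21092 at -0.18. Without WT1, WT4 and KO3 together, Rpl19-ps11 was at -0.065, 2610005L07Rik at 0.29 and 6820431F20Rik at 0.11. The causes were not tested.

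The labels do not say whether replicate numbers pair the libraries. The deviations of same-numbered libraries correlated at 0.075, 0.034, -0.39 and -0.087. No WT library correlated best with the KO library of its own number. These correlations cannot settle whether the libraries were paired. With the replicate block 0 members were called, 32 were above 0 and the median was 0.65. Depth limits the 9 members that were not tested and the pseudogenes with the fewest counts.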
